A study of Mus musculus with 7 samples.

Results

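The genes described here are 8 members of the cholesterol synthesis pathway: 7 enzymes (Hmgcs1, Idi1, Fdps, Fdft1, Sqle, Lss and Cyp51) and the sterol sensor Insig1. They were taken by gene symbol from the annotation of the array, which gave 21 probe sets of 45101, for 8 of 18194 named genes. Hmgcs1 and Idi1 lie on mouse chromosome 13, Fdps on chromosome 3, Fdft1 on 14, Sqle on 15, Lss on 10, and Cyp51 and Insig1 on chromosome 5. RNA came from D3 cells, an established mouse embryonic stem cell line, and was hybridised to Affymetrix Mouse 430 2.0 arrays, 1 per library. The groups were 5 libraries of calreticulin knockout cells and 2 libraries of wild type D3 cells, each pooled from parallel cultures and called a biological replicate by the submitters. The labels name no allele, clone or treatment for the knockout cells, so the p-values below measure the spread between these 7 libraries, which may be technical.

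Animal cells build cholesterol from acetyl-CoA through mevalonate. The first enzymes lead to farnesyl diphosphate, which also feeds protein prenylation, dolichol and ubiquinone, and the later enzymes turn squalene into lanosterol and then cholesterol in the membrane of the endoplasmic reticulum (ER). When ER cholesterol is low, the protein SCAP escorts the transcription factor SREBP-2 to the Golgi, where proteases release its active part, which switches on the genes of the pathway. INSIG1 holds SCAP in the ER when sterols are plentiful, and its own gene is an SREBP target.

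Active SREBP binds sterol regulatory elements in promoters, usually beside a CCAAT box bound by NF-Y. RefSeq promoter windows (build GRCm38.p6, 250 bases before to 50 after the gene start) were matched for 5 of the 8 genes, Hmgcs1, Idi1, Lss, Cyp51 and Insig1. Those of Cyp51, Hmgcs1 and Insig1 are printed because these genes, all known SREBP targets, had different patterns across the libraries. Capitals mark CACNCCA, the central letters of the classical sterol element, and CCAAT, each on either strand. The windows are chr5:4104648-4104947 (minus strand), chr13:119690101-119690400 and chr5:28071162-28071461 (both plus strand).
Cyp51: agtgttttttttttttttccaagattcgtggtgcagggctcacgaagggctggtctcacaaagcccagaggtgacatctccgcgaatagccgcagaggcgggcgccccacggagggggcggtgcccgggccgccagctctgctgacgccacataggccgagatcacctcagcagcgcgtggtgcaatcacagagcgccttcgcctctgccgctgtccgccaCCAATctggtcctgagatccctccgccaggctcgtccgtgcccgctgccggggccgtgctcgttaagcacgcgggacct
Hmgcs1: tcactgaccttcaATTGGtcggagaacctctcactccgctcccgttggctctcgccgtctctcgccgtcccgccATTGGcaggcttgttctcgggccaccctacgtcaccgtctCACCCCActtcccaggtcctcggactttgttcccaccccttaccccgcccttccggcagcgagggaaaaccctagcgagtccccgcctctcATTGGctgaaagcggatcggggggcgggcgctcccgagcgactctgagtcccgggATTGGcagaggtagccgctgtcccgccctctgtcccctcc
Insig1: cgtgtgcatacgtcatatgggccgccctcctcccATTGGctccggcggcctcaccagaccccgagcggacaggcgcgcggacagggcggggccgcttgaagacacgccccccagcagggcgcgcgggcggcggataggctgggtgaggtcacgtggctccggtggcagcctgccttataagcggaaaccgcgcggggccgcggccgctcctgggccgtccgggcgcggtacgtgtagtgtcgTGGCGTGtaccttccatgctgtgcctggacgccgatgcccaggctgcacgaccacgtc

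CCAAT was found in all 5 windows, with 4 matches in Hmgcs1, 2 in Idi1 and 1 each in Lss, Cyp51 and Insig1, while 37.4% of 32851 promoter windows of the same length held it. CACNCCA was found in 2 of the 5, 136 bases before the start of Hmgcs1 and 8 bases before that of Insig1, against 18.4% of all windows. GGGCGG, the letters of a GC box, was in all 5 windows and in 35.7% of all windows. No match of the 3 motifs overlapped another in the 3 printed windows. Such matches are letters in a window and not binding sites.

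**Figure D1:**
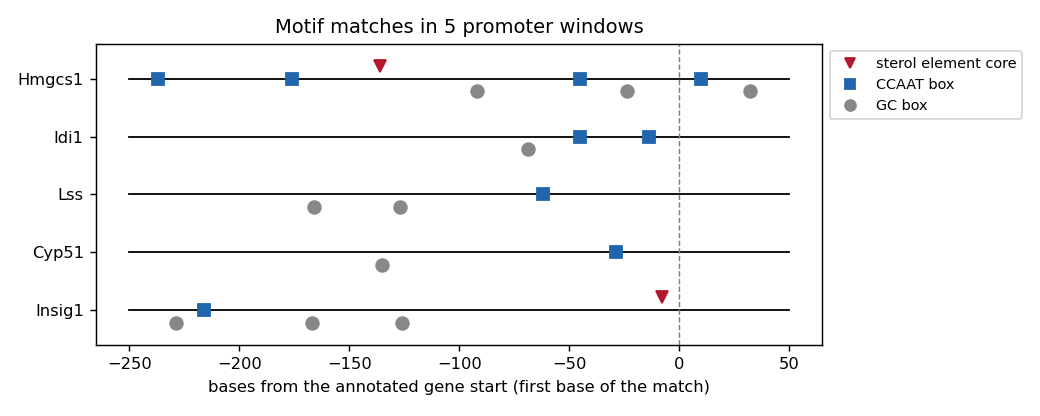
Positions of 3 short motifs in the RefSeq promoter windows of 5 genes, as bases from the annotated gene start (x axis; dashed line at the start), 1 gene per row. Squares are CCAAT, triangles CACNCCA and circles GGGCGG, on either strand; Hmgcs1 has 4 CCAAT matches and the other genes have 1 or 2.

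Some facts of the whole series bear on every value. Calr, the targeted gene, had a mean signal of 912 ± 205 (SD, n = 5) in knockout libraries and 11650 ± 1146 (SD, n = 2) in wild type libraries (limma adjusted p = 0.00531 over genes, and 0.176 or 0.137 with wild type library 1 or 2 left out). Knockout libraries 2 and 3 stood apart. They correlated with each other at r = 0.985 across tested probe sets, which are not independent, at 0.843 to 0.902 with any of the remaining 5, which reached 0.92 to 0.972 among themselves. A spiked-in bacterial Lys control transcript read 13605 and 10441 in these 2 libraries and 4063 to 5314 in the others, and the log2 ratio of 3' to 5' Actb control signal was 0.79 and 0.89, against 1.46 to 2.07. Summed over 9 fibroblast and feeder markers the signal was 4250 and 3903 in these 2 libraries, 656 to 1069 in the other knockout libraries, and 1363 and 1345 in the wild type. Col1a2, the brightest of these markers, read 1519 and 1443 in these 2 knockout libraries, 159 to 237 in the other 3, and 375 and 251 in the wild type. Lum was below the array median in every library. The sum of 10 stem cell markers ran from 80380 to 112543 in knockout libraries and was 83531 and 98323 in wild type libraries. Among these 10, knockout libraries 2 and 3 were the lowest at 4 and the highest at 2, against 26.0% and 24.6% of all genes. Pou5f1 read 4891 and 4687 there and 8770 to 11726 elsewhere. Tdgf1 read 14287 and 15929 there and 10428 to 11867 elsewhere. The sum of 10 primitive and visceral endoderm markers ran from 1218 to 2133 in knockout libraries and was 1881 and 2991 in wild type libraries. The part of these differences in the results below was not tested. In pooled RNA, fewer cells of a type and less RNA per cell cannot be told apart. The members and the gene lists are therefore given with and without knockout libraries 2 and 3.

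No member passed the test in the knockout against wild type comparison. Of the 21 probe sets, 18 were bright enough to be tested and 0 had an adjusted p under 0.05 (limma, 0.575 to 0.989), where 0.0296% of all tested probe sets passed. At an unadjusted p under 0.05 there were 0 of the 18, against 8.42% of all. With 1 probe set per gene, the brightest, 0 of 8 genes passed in limma, against 0.0152% of 13120 genes, and 0 of 8 at an unadjusted p under 0.05, against 8.06%. Without knockout libraries 2 and 3, limma again passed 0 of 18 probe sets (adjusted p 0.82 to 0.99; 0.0185% of all) and 0 of 8 genes (0.00762%), and 1 probe set (5.64%) and 1 gene (6.19%), Lss in both cases, had an unadjusted p under 0.05. No label calls these libraries a batch, and a batch term for them gives the same differences as leaving them out, so it is not a separate check. With it limma passed 0 of 18 probe sets (adjusted p 0.542 to 0.983, 0.037% of all) and 0 of 8 genes (0.0534%). At an unadjusted limma p under 0.05 there were 2 probe sets (8.65%) and 1 gene (9.50%). With every library kept, the differences, on the scale of log2(signal + 20.2), ran from -0.57 for Fdps to 0.68 for Cyp51 over the brightest probe sets. Their median was -0.27, with 7 of 8 genes below 0, and the median over all 13120 genes lay at 0 to 2 decimals, with 50.3% below it. Without wild type library 1 the median of the 8 was 0.08, with 4 of 8 below 0.

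**Figure D2:**
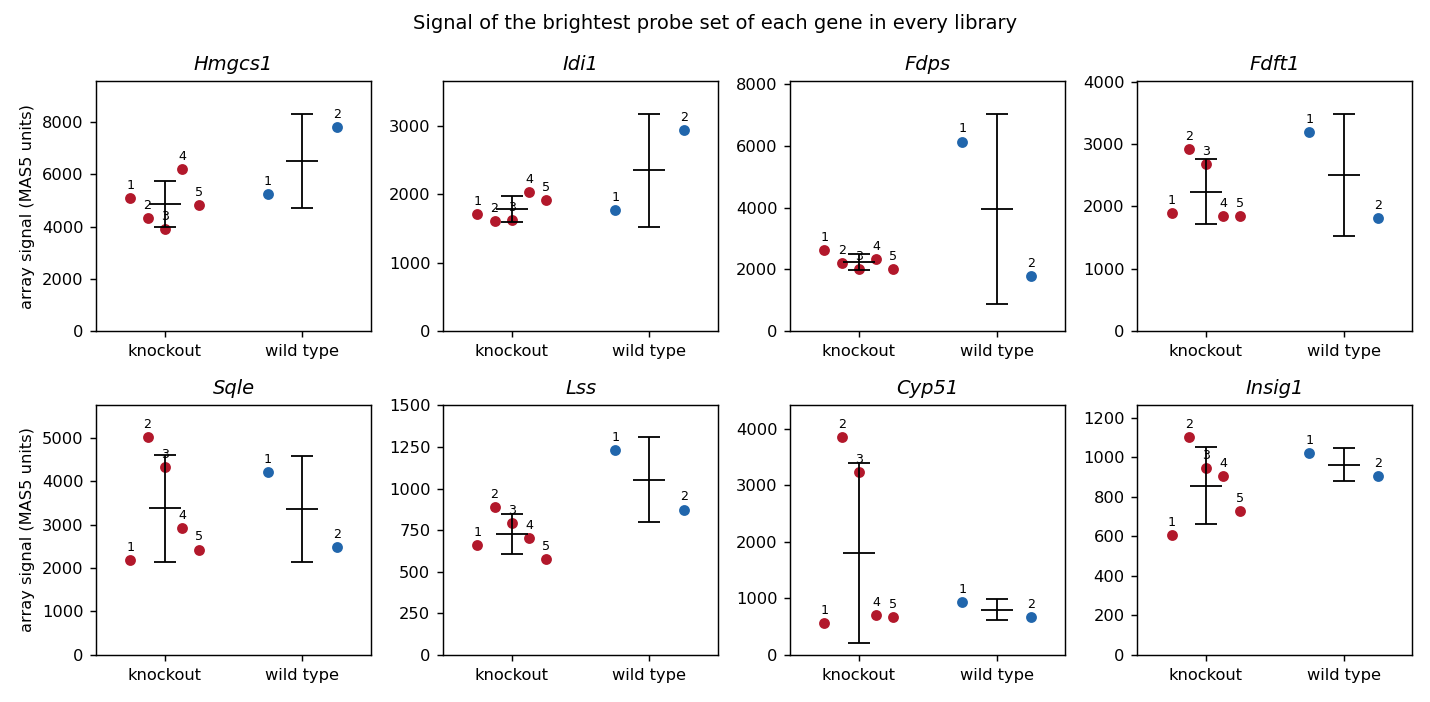
Array signal (y axis, MAS5 units, linear from 0) of the brightest probe set of each of the 8 genes in the 5 knockout libraries (red, left) and the 2 wild type libraries (blue, right). Digits are library numbers, and black bars give the mean and SD of each group; Cyp51 in knockout libraries 2 and 3 stands at 3852 and 3231, above the other 5 libraries, at 567 to 938.

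Enzymes before squalene come first. Hmgcs1 encodes the cytosolic synthase that makes HMG-CoA, the substrate of HMG-CoA reductase. Its brightest probe set read 5097, 4311, 3897, 6179 and 4821 in knockout libraries 1 to 5, against 5248 and 7785 in wild type libraries 1 and 2. The lowest values were those of knockout libraries 3 and 2, and knockout library 4 lay between the wild type libraries. The difference was -0.41 (95% interval -1.01 to 0.19, limma adjusted p = 0.601 over genes). All 4 tested probe sets of Hmgcs1 were lowest in knockout libraries 2 and 3, with differences from -0.41 to -0.26, and 20.9% of all tested probe sets had these 2 libraries lowest. Without the 2 libraries the brightest probe set differed by -0.26 (-0.80 to 0.28), and another by 0.06. A further, dim probe set was not tested. It read 52.7, 142, 89.5, 35.2 and 55.8 in knockout libraries 1 to 5, against 47.9 and 45.3 in wild type libraries, so it was highest where the bright ones were lowest.

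Idi1 encodes the isomerase that converts isopentenyl diphosphate to dimethylallyl diphosphate. Its brighter probe set read 1717, 1612, 1626, 2034 and 1919 in knockout libraries 1 to 5, against 1764 and 2931 in wild type libraries. The knockout libraries spanned a narrow range and wild type library 2 lay above all others. The difference was -0.35 (95% interval -0.98 to 0.27, limma adjusted p = 0.649), -0.27 without knockout libraries 2 and 3, and 0.01 without wild type library 2. With its other probe set Idi1 differed by -0.12.

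Fdps encodes farnesyl diphosphate synthase, whose product stands at the branch between sterols and the other isoprenoids. It read 2631, 2196, 2001, 2351 and 2010 in knockout libraries 1 to 5, against 6145 and 1793 in wild type libraries 1 and 2. Thus wild type library 1 was the highest and wild type library 2 the lowest of all 7, and the knockout libraries lay between them. The difference of -0.57 (95% interval -1.51 to 0.36, limma adjusted p = 0.634) was -0.52 without knockout libraries 2 and 3. It turned to 0.31 without wild type library 1 and was -1.46 without wild type library 2. The second Fdps probe set, not tested, read 4.10 to 23.7 in knockout libraries and 5.50 and 4.60 in wild type libraries.

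Enzymes from squalene onward follow. Fdft1 encodes squalene synthase, which commits farnesyl diphosphate to sterols. Its brightest probe set read 1896, 2928, 2680, 1842 and 1849 in knockout libraries 1 to 5, against 3201 and 1815 in wild type libraries. Knockout libraries 2 and 3 sat near wild type library 1, and the other 3 near wild type library 2. The difference was -0.14 (95% interval -0.87 to 0.59, limma adjusted p = 0.878), and -0.37 without knockout libraries 2 and 3. The 4 tested probe sets of Fdft1 ran from -0.14 to 0.20 over all libraries. Of these, 2 were dim, with means of 79.2 and 72.8 in knockout libraries and 82.8 and 77.8 in wild type libraries.

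Sqle encodes squalene epoxidase, which adds oxygen to squalene and is a slow step of the pathway. It read 2174, 5008, 4332, 2921 and 2426 in knockout libraries 1 to 5, against 4216 and 2487 in wild type libraries. The means, 3372 ± 1238 (SD, n = 5) in knockout and 3352 ± 1223 (SD, n = 2) in wild type libraries, lay close together with wide spreads. The difference was -0.02 (limma adjusted p = 0.988), with a 95% interval from -0.88 to 0.84 that leaves room for sizeable changes in either direction. It was 0.08 after quantile normalization and -0.38 (-1.03 to 0.27) without knockout libraries 2 and 3.

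Lss encodes lanosterol synthase, which closes the sterol rings. Its brightest probe set read 663, 887, 796, 704 and 578 in knockout libraries 1 to 5, against 1234 and 874 in wild type libraries. Knockout libraries 1, 4 and 5 lay below both wild type libraries, as at 2 of the 18 member probe sets (8.89% of all) and at 1 of the 8 genes (10.8% of all), and knockout library 2 lay just above wild type library 2. The difference was -0.52 (95% interval -1.16 to 0.12, limma adjusted p = 0.589). Without knockout libraries 2 and 3 it was -0.67 (-1.28 to -0.05, adjusted p = 0.770), which also missed the threshold.

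The 3 tested probe sets of Lss disagreed. The brightest has a name ending in s_at, a type that can match several transcripts. A dimmer one read 86.8, 88.6, 90.2, 63.5 and 34.4 in knockout libraries, against 155 and 91.3 in wild type libraries, a difference of -0.64 (95% interval -1.43 to 0.15). It was the single one of the 18 member probe sets whose groups did not overlap, and such separation was seen at 13.6% of all tested probe sets, 5.85% with the knockout libraries lower. At the brightest probe sets the groups separated for 0 of 8 genes, against 13.8% of all genes, or 7.44% with the knockout libraries lower. The third Lss probe set ran the other way, at 121, 470, 494, 271 and 190 in knockout libraries, against 132 and 201 in wild type libraries (difference 0.68, -0.44 to 1.79). It was highest in knockout libraries 2 and 3.

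Cyp51 encodes lanosterol demethylase, the first enzyme to act on lanosterol. Its brightest probe set read 567, 3852, 3231, 707 and 672 in knockout libraries 1 to 5, against 938 and 668 in wild type libraries. Knockout libraries 2 and 3 stood 2.25 and 2.00 above the wild type mean on the log2 scale, and the other 3 knockout libraries 0.16 to 0.47 below it. The difference over all libraries was 0.68 (95% interval -1.04 to 2.39, limma adjusted p = 0.743). Without knockout libraries 2 and 3 it turned to -0.29 (-0.91 to 0.33, adjusted p = 0.821). A second probe set of Cyp51 gave 240, 1920, 1905, 394 and 417 in knockout libraries, against 285 and 317 in wild type libraries, so the same 2 libraries were high. Its difference was 1.14, and 0.17 without them. The third Cyp51 probe set, too dim to be tested, was also highest there (115 and 139, against 13.1 to 54.5 in the other knockout libraries and 56.0 and 64.5 in wild type libraries).

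Insig1 was measured with 1 probe set, at 605, 1101, 944, 907 and 726 in knockout libraries 1 to 5, against 1023 and 903 in wild type libraries. Knockout libraries 1 and 5 were the lowest, and the other 3 lay around the wild type values. The difference was -0.19 (95% interval -0.86 to 0.48, limma adjusted p = 0.806), and -0.38 (adjusted p = 0.788) without knockout libraries 2 and 3. Its profile was the closest of the 8 to their mean profile, at a root mean square difference of 0.12 on the log2 scale, while Cyp51 was the farthest at 0.89.

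**Figure D3:**
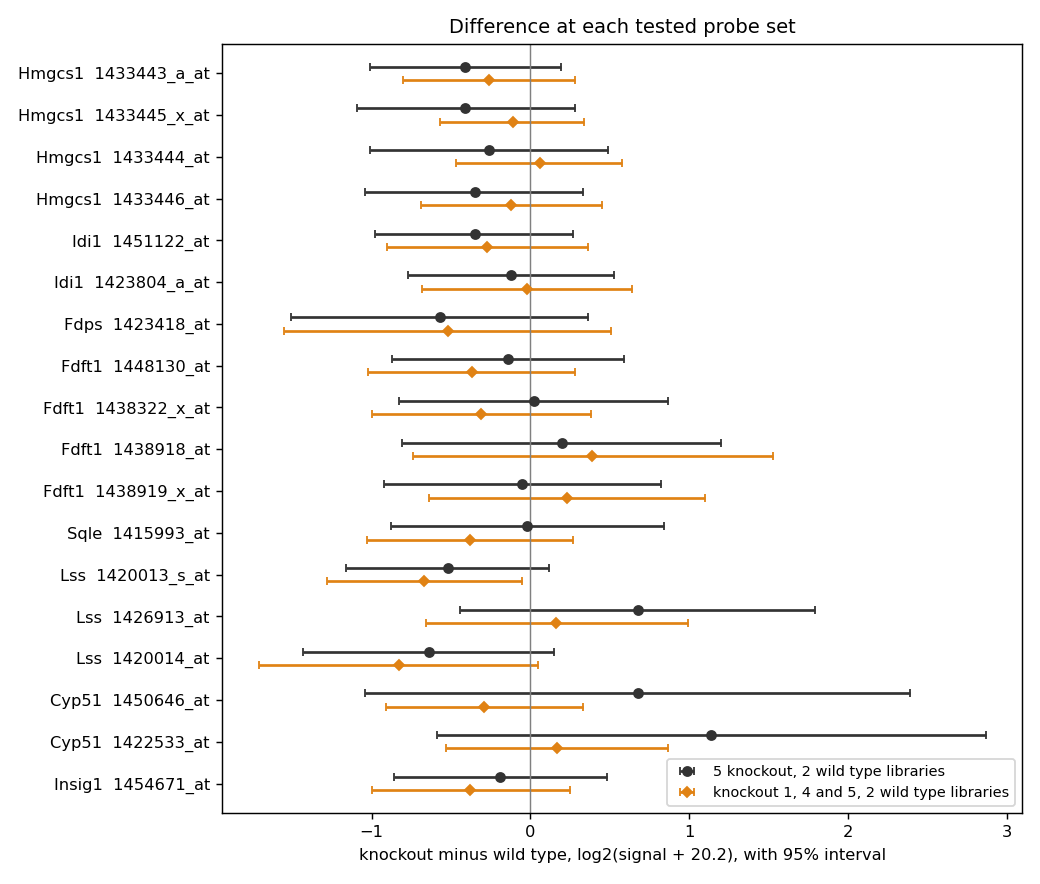
Knockout minus wild type difference on the scale of log2(signal + 20.2) (x axis) with its 95% interval from limma for the 18 tested probe sets (rows), over all 7 libraries (dark circles) and without knockout libraries 2 and 3 (orange diamonds). Each of the all-library intervals includes 0, and leaving out the 2 libraries moves the 2 Cyp51 rows the most, from 0.68 to -0.29 and from 1.14 to 0.17.

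Knockout libraries 2 and 3 together were higher than the other 5 libraries at 5 of the 18 member probe sets, 2 of Cyp51 and 1 each of Sqle, Fdft1 and Lss, and lower at 5, 4 of Hmgcs1 and 1 of Idi1. Over all tested probe sets these shares were 26.9% and 20.9%, so the members' shares were near those of the array as a whole. The genes could be set in pathway order with 10 further synthesis enzymes taken from a fixed list. Of 13 such further genes 10 were named on the array, all 10 were tested, and 0 passed in either direction (limma adjusted p 0.636 to 0.943 over genes), with 0 at an unadjusted p under 0.05. Their differences had a median of 0.06, with 5 of 10 above 0, and that median was -0.06 after centring on array medians and -0.04 after quantile normalization. It was -0.22, with 0 of 10 above 0, without knockout libraries 2 and 3.

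The further enzymes up to farnesyl diphosphate were Mvk, Pmvk and Mvd, all highest in wild type library 1. Mvk, the kinase of mevalonate, differed by -0.44, Pmvk, which adds the second phosphate, by -0.32, and Mvd, which then removes carbon dioxide, by -0.30. These differences were -0.63 for Mvk, -0.17 for Pmvk and -0.10 for Mvd without knockout libraries 2 and 3, and without wild type library 1 they were -0.03, 0.01 and 0.19. Pmvk read 618, 495, 485, 710 and 608 in knockout libraries 1 to 5, against 922 and 571 in wild type libraries. It was lowest in knockout libraries 2 and 3, as was the brighter probe set of Mvd. The dimmer probe set of Mvd was not, nor was Mvk, at 386 and 284 in these libraries and 212 to 275 in the other knockout libraries, against 499 and 275 in wild type libraries.

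At their brightest probe sets, 6 of the 7 further enzymes that act on sterols were highest in knockout libraries 2 and 3. Msmo1, a sterol methyl oxidase acting after Cyp51, read 1532, 6544, 6979, 1440 and 1660 in knockout libraries 1 to 5, against 2193 and 1551 in wild type libraries (difference 0.59, 95% interval -0.92 to 2.11, limma adjusted p = 0.747). Ebp, a sterol isomerase, read 1108, 3109, 2811, 993 and 997, against 1367 and 957 in wild type libraries (0.45, adjusted p = 0.745). Both were highest in knockout libraries 2 and 3 and overlapped the wild type libraries elsewhere, and without these 2 libraries the differences were -0.26 for Msmo1 and -0.15 for Ebp. Tm7sf2, a sterol reductase (0.41), Sc5d, a sterol desaturase (0.18), Nsdhl, which takes part in removing methyl groups (-0.07), and Hsd17b7, the reductase of the same demethylation (0.23), were also highest there. Dhcr7, which makes cholesterol in the last step of a pathway branch, was not, at 1423 and 1421 in these 2 libraries and 1478 in wild type library 1. The 3 tested probe sets of Sc5d gave 0.18, 0.67 and 1.16, and the 4 of Hsd17b7 -0.40 to 0.23.

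Counted in pathway order at the brightest probe set of each gene, knockout libraries 2 and 3 were the lowest at 4 of 6 enzymes up to farnesyl diphosphate. They were the highest at 0 of 6. From squalene to cholesterol they were the highest at 8 of 11 enzymes and the lowest at 0 of 11. Over all 13120 genes they were the highest at 24.6% and the lowest at 26.0%. In lists described below they were the highest at 5 of 7 tested genes of cholesterol uptake and transport and 3 of 4 of efflux and storage. For the non-sterol branch this was 7 of 10, and for fatty acid synthesis 2 of 10. High values in these libraries were thus not particular to the enzymes from squalene onward. Other tested probe sets of the synthesis enzymes did not all follow the brightest. These libraries were neither the highest nor the lowest at a dimmer probe set of Idi1 and of Mvd, and at some of Hsd17b7. They were the highest at another probe set of Fdft1 and of Lss, though not at the brightest. The division at farnesyl diphosphate was chosen after the values were seen and has no test. Beside it stand the control transcripts and fibroblast markers above, which differed in the same 2 libraries; their part was not tested.

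**Figure D4:**
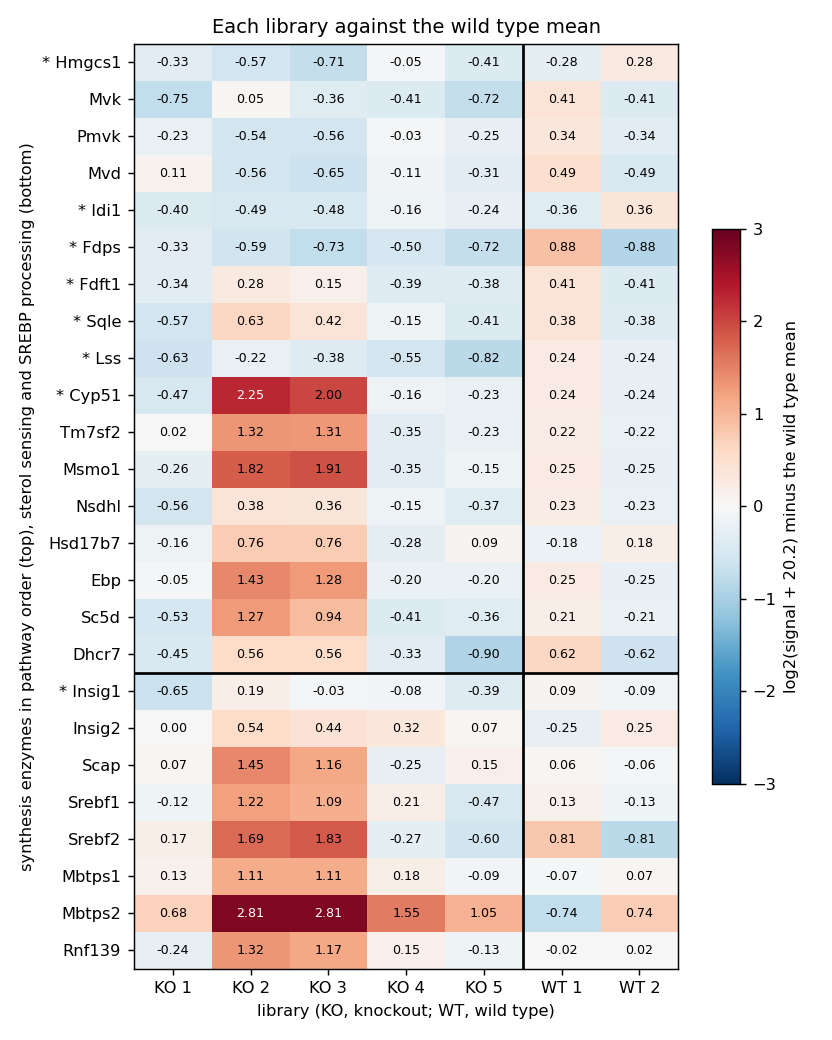
Each library's log2(signal + 20.2) minus the mean of the 2 wild type libraries (colour and printed value) for the brightest probe set of 17 synthesis enzymes in pathway order (top) and 8 genes of sterol sensing and SREBP processing (bottom); asterisks mark the 8 members. Knockout libraries 2 and 3 are below the wild type mean for Hmgcs1 (-0.57 and -0.71) and above it for Cyp51 (2.25 and 2.00).

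In knockout libraries 1, 4 and 5 against wild type, all 17 enzymes had a negative difference at their brightest probe sets, from -0.67 for Lss to -0.10 for Mvd, where 51.1% of all genes were negative. Of the 16 other tested probe sets of these enzymes, 7 were positive in the same comparison, namely 2 of Sc5d at 0.67 and 0.48, 2 of Fdft1 at 0.39 and 0.23, and 1 each of Cyp51 (0.17), Lss (0.16) and Hmgcs1 (0.06). None of the 17 passed (limma, adjusted p over genes at least 0.770), and for 14 of the 17 wild type library 1 was brighter than wild type library 2. With wild type library 2 alone as the comparison, a choice made after the data were seen, 9 of the 17 were negative, and among the 8 members 5 were. Of all genes 47.8% were negative in that comparison. Wild type library 1 was the highest of the 7 libraries for 3 of the 8 members, Fdps, Fdft1 and Lss. It was also the highest for 4 of the 10 further enzymes, Mvk, Pmvk, Mvd and Dhcr7, against 26.5% of all genes.

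Of the genes that control SREBP, 0 passed. Of 8 listed genes 7 were named on the array and tested, and their differences ran from 0.27 to 1.78 with a median of 0.49 (limma adjusted p 0.589 to 0.772 over genes). At an unadjusted limma p under 0.05 there was 1 of 7, against 8.06% of all genes. The median was -0.01, with 4 of 7 negative, without knockout libraries 2 and 3. Srebf2, which encodes the main activator of cholesterol synthesis genes, read 1087, 3151, 3481, 794 and 629 in knockout libraries 1 to 5, against 1709 and 539 in wild type libraries (0.56, 95% interval -1.06 to 2.19, adjusted p = 0.772). Scap, the escort, read 1030, 2706, 2208, 818 and 1091 in knockout libraries, against 1021 and 940 in wild type libraries (0.51, adjusted p = 0.689). In both genes knockout libraries 2 and 3 were the highest, and the other 3 knockout libraries lay near or within the wild type range.

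The proteases followed. Mbtps1, the site-1 protease that makes the first cut in SREBP, read 5803, 11474, 11464, 6002 and 4990 in knockout libraries, against 5039 and 5577 in wild type libraries (0.49, limma adjusted p = 0.642, and 0.07 without knockout libraries 2 and 3). Mbtps2, the site-2 protease, read 1280, 5692, 5672, 2363 and 1669 in knockout libraries, against 467 and 1338 in wild type libraries, a difference of 1.78 (95% interval 0.32 to 3.23, adjusted p = 0.589). Knockout library 1 lay just below wild type library 2, so the groups overlapped. Without knockout libraries 2 and 3 the Mbtps2 difference stood at 1.09 (limma adjusted p = 0.770), and without wild type library 1 at 1.04. With knockout libraries 2 and 3 and wild type library 1 all left out, a choice made after the data were seen, it was 0.35. Insig2 (0.27), a second sterol-sensing anchor of SCAP, Srebf1 (0.39), which favours fatty acid synthesis genes, and Rnf139 (0.46), a ubiquitin ligase of the ER membrane, had their highest values in knockout libraries 2 and 3 too. At the brightest probe sets all 7 genes did, against 24.6% of all genes. Other probe sets did not all follow. A dimmer tested probe set of Insig2 read 515 and 443 in these libraries and 494 in wild type library 1. For Mbtps1 a dimmer tested probe set read 158 and 130 there and 163 in wild type library 2. The remaining tested probe sets of Insig2, Mbtps1, Srebf2 and Rnf139 were highest there. A dim Scap probe set, not tested, was lowest there, at 33.1 and 46.4.

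Cholesterol transport genes gave 0 calls as well, and 0 had an unadjusted p under 0.05. In the uptake and transport list 7 genes were tested, with a median of 0.23 (limma adjusted p from 0.671), and of -0.01 with 4 of 7 negative without knockout libraries 2 and 3. Npc2, a lysosomal cholesterol carrier, read 5886, 11713, 11191, 7085 and 5263 in knockout libraries 1 to 5, against 6667 and 6199 in wild type libraries (0.28, and -0.09 without knockout libraries 2 and 3). Osbp, an oxysterol-binding protein, read 1006 to 1144 in knockout libraries and 1078 and 1022 in wild type libraries (0.03; -0.09 after centring on array medians). Of the efflux and storage list 4 genes were tested, with a median of 0.34 (adjusted p from 0.629), and of 0.07 without knockout libraries 2 and 3. Apoe, the lipoprotein apolipoprotein E, read 4150, 16582, 18144, 3173 and 2531 in knockout libraries, against 3665 and 2412 in wild type libraries (1.08, and 0.11 without knockout libraries 2 and 3). Abca1, a cholesterol exporter of the plasma membrane, read 593, 1685, 1778, 679 and 800, against 536 and 1267 in wild type libraries (0.26, and -0.26 without them). The groups overlapped for both genes, with the high values in knockout libraries 2 and 3.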

How the data were processed

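Gene expression was measured in 5 knockout and 2 wild type libraries, grouped by their titles. The deposited values are intensities, 1 linear signal per probe set and array. The submitters' processing notes name MAS5. Trimmed by 2% at both ends, each array's mean was 500.0, so the authors had scaled the arrays to a common level, and array medians ran from 92.6 to 124.9. Detection calls were not used here, so no signal is called absent, and the number of arrays limits the precision.

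Signals were converted to log2(signal + 20.2), the 20th percentile of all values, which understates changes of dim probe sets. Of 45101 probe sets, 64 controls were left out and 27022 with a mean above the 40th percentile were tested. The knockout minus wild type difference was fitted with limma (version 3.58.1, R version 4.3.3; lmFit, eBayes with a trend, two-sided, Benjamini-Hochberg adjusted p under 0.05 over all probe sets, or over 13120 genes with the brightest probe set each). Platform symbols were updated through RefSeq gene identifiers (34754 of 34958 probe sets with 1 symbol matched; 932 had several and were not named). Probe sets whose names end in x_at or s_at can match several transcripts. Among the synthesis enzymes, this holds for the brightest probe sets of Lss and Mvd (s_at) and Hsd17b7 (x_at).

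All 8 genes, Calr and each listed synthesis and SREBP control gene were named, with the brightest members of the other lists and the 5 closest profiles. The members and lists were chosen with earlier results of these data known. Fits were tested on simulated data. Alternatives are given at the end.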

Additional observations from a re-analysis of the deposited data

How the results depend on the processing

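The counts of 0 called members and 0 called pathway genes held in all 20 alternatives. Over all probe sets, 8 were called, against 4 with the filter at the 60th percentile, 5 with no filter, 5 without knockout libraries 2 and 3, 1 without wild type library 1 as well (chosen after seeing the data) and 0 to 7 when 1 library was left out. Over all genes, 2 were called, against 1, 1, 1 and 2 in the same 4 fits, 7 with a batch term for knockout libraries 2 and 3 and 0 to 2 when 1 library was left out. Titles share replicate numbers 1 and 2 between the groups but do not call them pairs, and the numbers are not taken as pairs. Deviations from the group means correlated at 0.109 and -0.01. With 2 wild type libraries their deviations mirror each other, so these values cannot show whether the libraries are paired. With the replicate block 15 probe sets and 42 genes were called, 0 of them members. The difference in that fit rests on libraries 1 and 2 of each group, because replicates 3, 4 and 5 exist only as knockouts. The members' median difference, -0.27, ran from -0.34 to 0.08 when 1 library was left out (the highest value without wild type library 1); centring on array medians shifted the median of all genes to -0.12 and the members' to -0.39.

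No difference named here except that of Calr was called, so the sign changes below are of uncalled values, and the cause was not tested. Calr stayed lower throughout (-3.78 to -3.52 with 1 library left out), and was not called without wild type library 1 (adjusted p = 0.176) or 2 (0.137). Without knockout libraries 2 and 3, or with them as a batch term, signs turned for Cyp51 (-0.29), Tm7sf2 (-0.19), Msmo1 (-0.26), Hsd17b7 (-0.12), Ebp (-0.15), Sc5d (-0.44), Srebf1 (-0.13), Srebf2 (-0.23), Scap (-0.01), Rnf139 (-0.07), Npc2 (-0.09), Abca1 (-0.26) and Col1a2 (-0.67). Without wild type library 1 as well they turned for Fdps (0.37), Fdft1 (0.04), Sqle (0.00), Cyp51 (-0.05), Pmvk (0.17), Mvd (0.39), Msmo1 (-0.01), Hsd17b7 (-0.30), Sc5d (-0.22), Dhcr7 (0.05), Insig2 (-0.12), Rnf139 (-0.09), Npc2 (-0.04), Abca1 (-0.87), Nus1 (-0.15) and Col1a2 (-0.40). Array weights turned Sc5d (-0.19), Abca1 (-0.02) and Col1a2 (-0.26), the mean of a gene's probe sets Fdft1 (0.01) and Hsd17b7 (-0.09), centring Osbp (-0.09), quantile normalization Osbp (-0.04) and Sqle (0.08), and the replicate block Sqle (0.03), Dhcr7 (0.06) and Osbp (-0.01).
With 1 library left out, differences that changed sign ran from -0.72 to 0.01 for Idi1, from -1.46 to 0.31 for Fdps, from -0.54 to 0.27 for Fdft1, from -0.40 to 0.36 for Sqle, from -0.66 to 0.01 for Pmvk, from -0.79 to 0.19 for Mvd, from -0.30 to 0.17 for Nsdhl, from -0.09 to 0.40 for Sc5d, from -0.73 to 0.50 for Dhcr7, from -0.25 to 1.38 for Srebf2, from -0.01 to 0.07 for Osbp, from -0.34 to 0.87 for Abca1, from -0.35 to 0.12 for Ndufs7, from -0.38 to 0.08 for 4930413G21Rik and from -0.55 to 0.04 for Slc17a7.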

Other observations

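Lipid pathways beside cholesterol synthesis showed the same lack of calls. Of 10 fatty acid synthesis genes, 0 passed (limma adjusted p 0.589 to 0.906 over genes) and 7 had a negative difference, against 50.3% of all genes. Their median was -0.49, and -0.48 without knockout libraries 2 and 3. Wild type library 1 was the highest of the 7 libraries at 6 of the 10, against 26.5% of all genes. At an unadjusted limma p under 0.05 there was 1 of the 10, Fasn, against 8.06% of all genes. Without these libraries there were 3 of the 10, Fasn, Scd1 and Scd2, against 6.19% of all genes. Of these, Scd1 was named after its values were seen. Acly, the enzyme that makes cytosolic acetyl-CoA from citrate, read 8016, 3414, 3305, 8764 and 7962 in knockout libraries 1 to 5, against 9538 and 9112 in wild type libraries. For Acly every knockout value was under both wild type values, as for 2 of the 10 genes and 7.44% of all genes, and knockout libraries 2 and 3 were far the lowest (difference -0.69, and -0.18 without them). Fasn, the fatty acid synthase, was the other gene with this separation, at 3820, 2801, 2765, 4977 and 3786 in knockout libraries, against 8413 and 5253 in wild type libraries (difference -0.90, limma adjusted p = 0.589, -0.67 without knockout libraries 2 and 3, and -0.57 without wild type library 1). Scd2, a fatty acid desaturase, read 1972, 11680, 10839, 5574 and 2311 in knockout libraries, against 12005 and 6059 in wild type libraries (-0.76). In Scd2 knockout libraries 2 and 3 sat with wild type library 1, and the other 3 lay below both wild type libraries (-1.53 without knockout libraries 2 and 3, limma adjusted p = 0.770). The Scd2 difference was -0.27 without wild type library 1 and -0.22 as the mean of the gene's probe sets.

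The non-sterol branch that starts at farnesyl diphosphate had 10 tested genes, 0 of which passed (limma adjusted p 0.589 to 0.940), with a median of 0.15, and of 0.05 without knockout libraries 2 and 3. Fnta, a subunit shared by the farnesyl and geranylgeranyl transferases that prenylate proteins, read 11157, 7243, 6843, 13217 and 9990 in knockout libraries 1 to 5, against 13541 and 13059 in wild type libraries (-0.50, and -0.22 without knockout libraries 2 and 3). It was lowest in knockout libraries 2 and 3. Nus1, a subunit of the enzyme that makes dolichol, read 2348, 5568, 5233, 3048 and 2992 in knockout libraries, against 1213 and 3087 in wild type libraries (0.90), and was highest in the same 2 libraries. The Nus1 difference was 0.52 without these 2 libraries and 0.23 without wild type library 1. Of the 10 genes, 7 were highest in knockout libraries 2 and 3 and 2 were lowest there, against 24.6% and 26.0% of all genes.

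The 5 genes whose centred log2 profiles over the 7 libraries lay closest to the mean profile of the 8 members were Rabep2 and Nit1 (root mean square difference 0.06 each), Ndufs7 and 4930413G21Rik (0.07 each) and Slc17a7 (0.09). This mean profile had its highest points in wild type library 1 (0.34) and knockout library 2 (0.32) and its lowest in knockout libraries 1 (-0.33) and 5 (-0.31). It was not shared by all members. In knockout library 2 Cyp51 stood at 1.77, Hmgcs1, Idi1 and Fdps at -0.27, -0.24 and -0.18, and the rest at 0.15 to 0.64. In wild type library 1 Fdps stood highest, at 1.29.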
